A study of Mus musculus with 8 samples.

Results

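The comparison set all cells that carry a 2C::GFP reporter, as one side, against wild-type mouse embryonic stem cells (ESCs), as the other. Transcripts were counted in 8 bulk libraries of polyadenylated RNA, 6 from reporter cells and 2 from wild-type ESCs, which are all the libraries in the tables used here. Wild-type ESCs (mESC, 2 libraries) were untreated. The reporter side held 3 groups of 2 libraries: 2C::GFP+ without treatment, 2C::GFP+/SGC given 2 µM SGC0946 in KnockOut medium with 10 ng/ml LIF, and 2C::GFP+/SA given 2 µM SGC0946 and 2 µM AS8351 in KnockOut medium with 10 ng/ml IL6/sIL-6R in place of LIF. SGC0946 inhibits DOT1L, a methyltransferase of histone H3, and AS8351 is used against KDM5B, a demethylase of the same histone. KnockOut medium holds a serum replacement. The labels give a second medium for mouse ESCs, N2B27 with LIF and the inhibitors PD03 (against MEK) and CHIR9901 (against GSK3), and do not say which of the media the mESC and the untreated 2C::GFP+ libraries came from. Medium, genotype and reporter therefore cannot be told apart in any value below. The labels give neither the sequence that drives the reporter nor whether cells were sorted on it, and do not say whether libraries of a group came from separate cultures, so p-values measure the spread between these libraries. The columns of untreated 2C::GFP+ were matched to that group by elimination, since their name is that of the serum replacement.

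ESCs self-renew in a naive state when LIF signals through STAT3, and in serum-free culture when MEK is blocked and WNT signalling is mimicked by blocking GSK3. With MEK active, cells express feedback inhibitors of the ERK pathway and move towards the formative state of the post-implantation epiblast, in which the DNA methyltransferases DNMT3A and DNMT3B methylate the genome. A small and changing fraction of ESCs enters a 2-cell-like state, in which the transcription factor DUX and the ZSCAN4 proteins are expressed, and fluorescent reporters of this state are used to find such cells.

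The libraries held 12299931 to 145810034 counts, and in each group replicate 1 was the deeper one. With 3 counts as the floor, the lowest level that could be told from 0 ran from 0.0206 CPM, which are counts scaled to a common library size, in the deepest library to 0.244 CPM in the shallowest. Pluripotency factors were abundant on both sides: Pou5f1 was at 687 and 626 CPM in mESC and at 506 to 750 CPM in the 6 reporter libraries, and Nanog at 682 and 738 CPM and at 601 to 853 CPM. Nanog did not pass the test between the sides, and neither did Pou5f1 (log2 fold changes -0.05 ± 0.14 and -0.18 ± 0.10, SE; adjusted p = 0.788 and 0.203). Pou5f1 was called without both columns assigned to 2C::GFP+ (adjusted p = 0.0406, the lowest of its alternatives, which went up to 0.616). All CPM values are scaled with TMM factors, and log2 fold changes are the mean of the 3 reporter groups, each weighing the same, minus mESC. Scaling by the upper quartile moved the median log2 fold change of all tested genes from 0.03 to 0.14, so small changes should be read against that shift. The RNA is from bulk cells, in which fewer cells of a type and less RNA per cell cannot be told apart.

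Between reporter cells and mESC, 8215 of 20608 tested genes changed at an adjusted p under 0.05 in edgeR's quasi-likelihood test (39.9%), 4624 higher (22.4%) and 3591 lower (17.4%) in reporter cells. All 6 reporter libraries were above both mESC libraries for 4312 genes and below both for 3755. The 3 reporter groups differed among themselves for 4813 genes (23.4%), and 5069 of the genes called against mESC were not among these. The first count was 4798 without mESC replicate 1, and 3981 with the 6 reporter libraries fitted as 1 group, and the count among reporter groups was 2924 or 3170 when replicate 1 of 2C::GFP+ or of 2C::GFP+/SA was left out. The genes described here changed against mESC, separated all 6 reporter libraries from both mESC libraries, differed at least 2-fold, and had fitted levels in the 3 reporter groups within 1.5-fold of each other. These shared shift genes numbered 798, of which 473 were higher and 325 lower in reporter cells. Another 3258 genes met every condition except the limit among reporter groups. The limit, 0.5850 on the log2 scale, has genes close to it on both sides. Efr3b and Wdtc1 (higher) and Mdfic and Mgat5 (lower) were just inside, with ranges of 0.5841, 0.5831, 0.5843 and 0.5793. Arhgef10, Col2a1, Kdf1 and Cdkn1a were just outside, with 0.5856, 0.5853, 0.5865 and 0.5862. A limit of 2-fold gave 1588 genes, and a limit of 0.322 on the log2 scale 286. A small range is not proof of equal levels: 8 of the 798 genes still differed among the reporter groups at an adjusted p under 0.05, among them Wdtc1, Mcl1, Actn4 and Stat3.

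**Figure D1:**
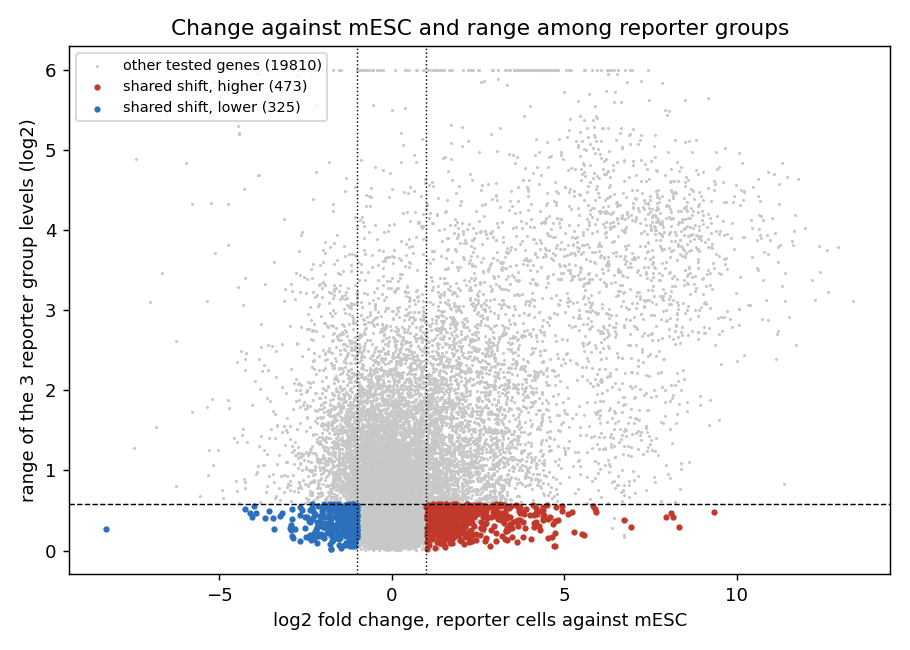
Each point is a tested gene, with the log2 fold change of reporter cells against mESC on the x axis and the log2 range of the 3 fitted reporter group levels on the y axis (cut at 6). The 473 higher (red) and 325 lower (blue) shared shift genes lie below the dashed line of 1.5-fold and outside the dotted lines of 2-fold, and most other genes with large fold changes lie above the limit.

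The groups of reporter cells moved the shared shift genes by like amounts, which the rule itself requires. The median log2 fold change of the 473 higher genes was 1.84 for 2C::GFP+, 1.90 for 2C::GFP+/SGC and 1.91 for 2C::GFP+/SA, and that of the 325 lower genes -1.37, -1.38 and -1.46. The 3 contrasts share the mESC libraries. Large differences were more frequent upwards: 212 of the higher genes and 65 of the lower genes differed at least 4-fold. The higher genes were weakly expressed in mESC, with a median of 1.27 CPM there and 4.63 CPM in reporter cells, whereas the lower genes went from a median of 26.2 to 8.67 CPM. In mESC 7 of the higher genes had no count in either library. Protein-coding genes made up 87.5% of the higher and 88.3% of the lower genes against 76.3% of tested genes. The X chromosome held 18 of the higher, 13 of the lower and 745 of all tested genes, and on each autosome between 3.10% and 4.68% of tested genes were shared shift genes. Of 304 tested solute carrier genes (Slc), 4 were shared and higher and 11 shared and lower, and 77 were called higher and 84 lower in all. Of all tested genes 3.87% were shared shift genes. None of 80 ribosomal protein genes was one, although 22 of them were called lower. These families were chosen after the genes were seen.

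The leading genes in each direction were taken from shared shift genes with at least 10 CPM on their higher side, and weaker genes had larger fold changes, up to 9.33 on the log2 scale. Among these leading rises, Dpp4, which encodes a dipeptidyl peptidase of the cell surface (ENSMUSG00000035000, chromosome 2, 62330073 to 62412231, GRCm38), was at 0.678 and 0.821 CPM in mESC, against 60.7 and 45.3 in 2C::GFP+, then 42.2 and 34.3 in 2C::GFP+/SGC, and finally 42.5 and 31.0 in 2C::GFP+/SA. Every reporter library was thus far above both mESC libraries, and the log2 fold change was 5.88 ± 0.26 (SE). Robo4, a roundabout receptor known from endothelial cells, was at 0.291 and 0.103 CPM in mESC and between 10.3 and 12.5 CPM in the 6 reporter libraries (5.52 ± 0.34). The 6 reporter values lay close together, and the rule itself limits the range of the group levels. Adgre5, the adhesion receptor CD97, rose from 3.53 and 4.72 CPM to between 80.7 and 133 CPM (4.60 ± 0.19). The secreted semaphorin gene Sema3e (4.38 ± 0.28), the collagen gene Col6a5 (4.19 ± 0.34) and the efflux transporter gene Slc47a1 (3.47 ± 0.32) followed the same pattern at lower levels, reaching at most 14.8, 11.4 and 26.3 CPM. Lrp2, which encodes the endocytic receptor megalin, was at 7.36 and 6.26 CPM in mESC and between 94.3 and 142 CPM in reporter cells (4.04 ± 0.19), with the 3 fitted group levels within 0.15 of each other on the log2 scale.

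The leading rises included 2 transcription factor genes. Tcfl5, a basic helix-loop-helix factor gene known from the testis, was at 1.70 and 0.719 CPM in mESC, against 39.7 and 49.2 in 2C::GFP+, then 32.2 and 46.4 in 2C::GFP+/SGC, and finally 29.1 and 39.1 in 2C::GFP+/SA (4.81 ± 0.33). Grhl2, a grainyhead factor gene of epithelial cells and the formative epiblast, was at 1.69 and 2.52 CPM in mESC, against 31.3 and 44.6 in 2C::GFP+, then 22.1 and 53.8 in 2C::GFP+/SGC, and finally 20.4 and 40.2 in 2C::GFP+/SA (4.13 ± 0.59). For both genes replicate 2 was above replicate 1 in each of the 3 reporter groups. Grhl2 was not called without mESC replicate 2 (adjusted p = 0.057), and its adjusted p was between 6.64e-14 and 0.057 over all alternatives. Ankrd44, a subunit gene of protein phosphatase 6, completed the leading 10 with 0.481 and 0.411 CPM in mESC and 9.10 to 15.9 CPM in reporter cells (4.67 ± 0.35).

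**Figure D2:**
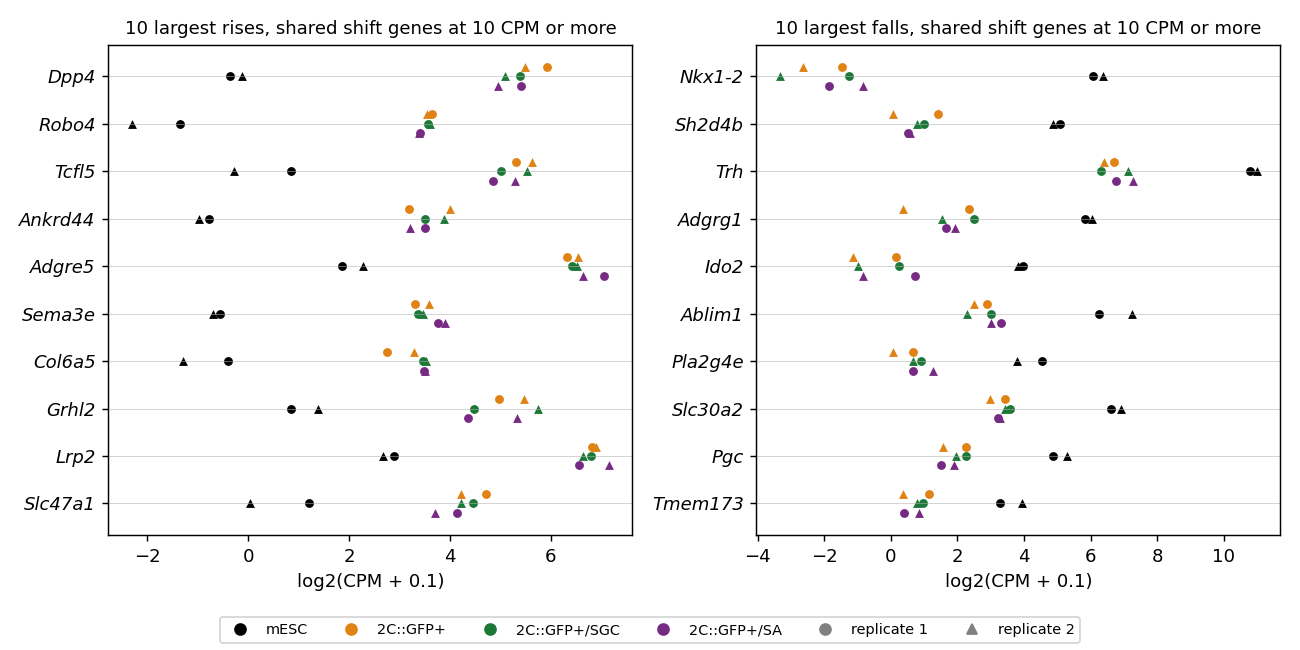
The log2 of CPM + 0.1 in each of the 8 libraries is shown for the shared shift genes with at least 10 CPM on their higher side that had the 10 largest rises (left) and the 10 largest falls (right), 1 point per library. The mESC points (black) are separate from the 6 reporter points in every row (reporter groups in orange, green and purple, circles replicate 1, triangles replicate 2). The rule requires both this separation and fitted reporter group levels within 1.5-fold. Single reporter libraries spread further in some rows, as for Adgrg1 (1.19 to 5.53 CPM).

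The most abundant of the higher genes changed less. Per length of transcript, in TPM, an abundance that takes transcript length into account, the levels of Gpx4, Mcl1, Mdk, Mkrn1 and Actn4 averaged 291, 257, 213, 235 and 257 TPM in mESC and 1090, 668, 608, 581 and 548 TPM in reporter cells. Gpx4, whose product reduces lipid peroxides, was at 153 and 150 CPM in mESC, against 473 and 539 in 2C::GFP+, then 501 and 666 in 2C::GFP+/SGC, and finally 592 and 554 in 2C::GFP+/SA (log2 fold change 1.87 ± 0.13). Mdk, which encodes the growth factor midkine, was at 88.7 and 81.0 CPM in mESC and between 211 and 262 CPM in reporter cells (1.48 ± 0.11). The ubiquitin ligase gene Mkrn1 rose from 313 CPM in both mESC libraries to between 683 and 861 CPM (1.28 ± 0.11). The survival factor gene Mcl1 (1.34 ± 0.12) and the actin-crosslinker gene Actn4 (1.05 ± 0.12) rose in all 3 groups and were highest in 2C::GFP+/SA.

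Among the lower genes at 10 CPM or more Nkx1-2, a homeobox gene of the posterior epiblast (ENSMUSG00000048528, chromosome 7, 132594878 to 132599637), had the largest fall. It was at 66.4 and 82.4 CPM in mESC and at most 0.462 CPM in any reporter library, with 0 counts in 2C::GFP+/SGC replicate 2 (log2 fold change -8.28 ± 0.35). Trh, which encodes the precursor of thyrotropin-releasing hormone (ENSMUSG00000005892, chromosome 6, 92242061 to 92244650), was one of the abundant transcripts of mESC, with 1775 and 2025 CPM. It was at 103 and 84.1 CPM in 2C::GFP+, then 79.7 and 138 in 2C::GFP+/SGC, and finally 108 and 153 in 2C::GFP+/SA, a fall by 4.11 ± 0.20 on the log2 scale that left it well detected in every reporter library. The adhesion receptor gene Adgrg1 fell from 57.0 and 65.9 CPM to between 1.19 and 5.53 CPM (-4.06 ± 0.42). The adaptor gene Sh2d4b (-4.25 ± 0.25) and Ablim1, an actin-binding LIM protein gene (-3.95 ± 0.26), fell to at most 2.58 and 9.89 CPM. Of the other leading falls, 3 were enzyme genes: Ido2, an indoleamine dioxygenase (-4.01 ± 0.38), Pla2g4e, a phospholipase A2 (-3.55 ± 0.26), and Pgc, the pepsinogen C precursor (-3.19 ± 0.20). Slc30a2, a zinc exporter gene, was at 96.6 and 119 CPM in mESC and between 7.84 and 11.9 CPM in reporter cells (-3.43 ± 0.13), and Tmem173, which encodes the DNA-sensing adaptor STING, went from 9.65 and 15.2 CPM to between 1.19 and 2.10 CPM (-2.93 ± 0.27).

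Behind Trh, the most abundant lower genes per length were Mt1, Ckb, Tdh and Asns, at 1218, 940, 890 and 885 TPM in mESC and 243, 243, 383 and 373 TPM in reporter cells. Ckb, the brain-type creatine kinase gene, was at 813 and 826 CPM in mESC, against 237 and 211 in 2C::GFP+, then 208 and 193 in 2C::GFP+/SGC, and finally 214 and 189 in 2C::GFP+/SA (-1.97 ± 0.09). The spread between reporter libraries was small beside this difference, which the rule for shared shift genes in large part requires. Tdh, the threonine dehydrogenase gene an enzyme that mouse ESCs rely on to use threonine, fell from 738 and 665 CPM to between 245 and 397 CPM (-1.25 ± 0.12), and Asns, the asparagine synthetase gene, from 649 and 802 CPM to between 239 and 345 CPM (-1.26 ± 0.13).

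The promoters of the higher genes held few CpG dinucleotides. In the 250 bases before the start site given by RefSeq (GRCm38.p6), the ratio of observed to expected CpG had a median of 0.512 in 335 higher genes with an entry, 0.643 in 229 lower genes and 0.679 in all 13213 tested genes with one. A ratio under 0.5 was found in 48.4%, 33.6% and 31.5% of them. The same ratio had a median of 0.510 in the 1387 higher genes over the limit among reporter groups, so the value is not particular to the shared genes. In the 541 lower genes over that limit the median was 0.542, and 44.7% had a ratio under 0.5. A low ratio is thus not particular to genes that rose either. The higher genes were also expressed at a lower level than the tested genes with a promoter entry (median 5.20 against 14.4 CPM in reporter cells), and the part of expression level in the CpG value was not tested. To show the range, the 150 bases before the start site are given for the 3 largest rises and the 3 largest falls of the leading genes, on the strand of the gene, 5′ to 3′, with CpG in capitals. They lie at chr2:62412232-62412381 (Dpp4, minus strand), chr9:37401822-37401971 (Robo4, plus), chr2:180642692-180642841 (Tcfl5, minus), chr7:132599638-132599787 (Nkx1-2, minus), chr14:40893315-40893464 (Sh2d4b, minus) and chr6:92244651-92244800 (Trh, minus).
Dpp4: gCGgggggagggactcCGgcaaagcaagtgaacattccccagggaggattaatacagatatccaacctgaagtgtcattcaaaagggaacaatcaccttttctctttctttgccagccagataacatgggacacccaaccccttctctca
Robo4: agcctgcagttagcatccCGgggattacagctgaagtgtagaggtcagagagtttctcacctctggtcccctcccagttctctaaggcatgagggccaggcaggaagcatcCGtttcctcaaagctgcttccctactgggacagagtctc
Tcfl5: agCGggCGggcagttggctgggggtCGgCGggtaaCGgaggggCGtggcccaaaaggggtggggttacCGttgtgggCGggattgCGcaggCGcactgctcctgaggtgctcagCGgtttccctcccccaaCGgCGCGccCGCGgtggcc
Nkx1-2: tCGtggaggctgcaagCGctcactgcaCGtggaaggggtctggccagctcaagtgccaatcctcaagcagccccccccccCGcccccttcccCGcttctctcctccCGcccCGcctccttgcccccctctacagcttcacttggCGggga
Sh2d4b: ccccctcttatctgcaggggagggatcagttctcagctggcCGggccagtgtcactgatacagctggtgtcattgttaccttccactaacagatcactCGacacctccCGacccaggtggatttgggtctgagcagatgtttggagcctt
Trh: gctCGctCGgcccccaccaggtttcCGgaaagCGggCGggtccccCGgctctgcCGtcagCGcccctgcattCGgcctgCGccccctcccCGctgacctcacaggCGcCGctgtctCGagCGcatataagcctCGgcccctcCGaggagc
Both kinds stood in each direction: these windows hold 2, 2 and 16 CpG in the higher genes and 8, 3 and 17 in the lower genes. Trh, the most abundant of the 6 in mESC, had the most.

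More targets of MEK-ERK signalling rose than fell in reporter cells. Of 19 tested members of the list, 9 rose, 1 fell and 9 did not pass, with a median log2 fold change of 0.81 against 0.03 over all tested genes, of which 22.4% rose and 17.4% fell. The counts of the other lists below should be read beside these shares of all tested genes. The 2 shared members were feedback inhibitors of the pathway. Dusp5, a phosphatase gene that acts on ERK, was at 1.96 and 2.93 CPM in mESC, against 22.4 and 26.0 in 2C::GFP+, then 18.1 and 26.0 in 2C::GFP+/SGC, and finally 14.6 and 18.6 in 2C::GFP+/SA (3.13 ± 0.25). Spry4, a Sprouty gene, was at 36.3 and 24.8 CPM in mESC and between 101 and 164 CPM in reporter cells (2.11 ± 0.19). The phosphatase gene Dusp6 (1.39 ± 0.18, adjusted p = 0.000101) and Myc (1.68 ± 0.16, adjusted p = 3.07e-06) rose too, but their levels also differed among the reporter groups and were lowest in 2C::GFP+/SGC, at 49.2 and 54.2 CPM for Dusp6 and 42.7 and 57.6 CPM for Myc. Ccnd1, the cyclin D1 gene, fell by 1.40 ± 0.29 (adjusted p = 0.013). It was not called without either mESC library (adjusted p = 0.079 and 0.0926) or without 2C::GFP+/SA replicate 2 (0.0743), and its adjusted p lay between 1.29e-09 and 0.0926 over all alternatives.

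More targets of canonical WNT signalling fell than rose. Of 21 members 10 fell and 1 rose, while 10 did not pass (median -0.75), and 2 rose without mESC replicate 2 or without 2C::GFP+/SA replicate 1. Besides Nkx1-2, the shared member was the 1 that rose, Ccnd2, the cyclin D2 gene, which went from 6.86 and 6.06 CPM to between 19.9 and 37.8 CPM (2.06 ± 0.22). Sp5, a direct target, went from 97.8 and 84.5 CPM in mESC to 0.534 and 0.594 in 2C::GFP+, then 0.523 and 0.816 in 2C::GFP+/SGC, and finally 1.49 and 1.85 in 2C::GFP+/SA (-6.83 ± 0.16, adjusted p = 8.58e-12). Axin2, a feedback inhibitor, went from 135 and 150 CPM to 18.3 to 28.1 CPM in 2C::GFP+ and 2C::GFP+/SGC, but only to 71.3 and 73.6 CPM in 2C::GFP+/SA (-2.07 ± 0.13, adjusted p = 8.15e-08). The homeobox genes Cdx1 and Cdx2 fell by 3.35 ± 0.23 and 4.49 ± 0.37 (adjusted p = 1.49e-07 and 7.18e-07). Sp5, Axin2, Cdx1 and Cdx2 were thus below both mESC libraries in every reporter library, with the depth of the fall of Sp5 and Axin2 differing between groups.

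The naive pluripotency network changed in part. Of 22 naive genes 8 fell, 5 rose and 9 did not pass (median -0.24), and 13 of them differed among the reporter groups. Of all tested genes 17.4% fell and 22.4% rose, so the naive genes rose about as often as all genes. Klf4, a factor gene downstream of LIF and STAT3, was at 338 and 453 CPM in mESC, against 178 and 185 in 2C::GFP+, then 163 and 163 in 2C::GFP+/SGC, and finally 149 and 153 in 2C::GFP+/SA (-1.26 ± 0.11), a shared fall. Stat3 itself was a shared member, at 184 and 179 CPM against 62.0 to 110 CPM (-1.07 ± 0.11). Tfcp2l1 fell in all groups, from 1217 and 1365 CPM to between 141 and 371 CPM (-2.44 ± 0.11, adjusted p = 2.85e-09), and most in 2C::GFP+/SA. Esrrb fell by 0.70 ± 0.10 (adjusted p = 7.74e-05), and Zfp42 had a value of -0.21 ± 0.15 (adjusted p = 0.278). Without both columns assigned to 2C::GFP+, Zfp42 was called lower (-0.42, adjusted p = 0.0181, the lowest of its alternatives, which went up to 0.956). Dppa2 and Dppa4, which encode partner proteins with a DNA-binding SAP domain, rose by 3.42 ± 0.15 and 1.31 ± 0.12 (adjusted p = 2.85e-09 for Dppa2); of the pair, Dppa4 was a shared member, going from 62.3 and 52.6 CPM to between 120 and 172 CPM. The count of 5 rises was 3 without mESC replicate 2. Among 14 general pluripotency genes 5 rose, 5 fell and 4 did not pass (median 0.22; 3 rose without mESC replicate 2). A pair of adhesion genes of epithelial cells moved apart there: Epcam went from 37.4 and 61.7 CPM to between 143 and 190 CPM (1.74 ± 0.19) and Cdh1, the E-cadherin gene, from 871 and 972 CPM to between 356 and 526 CPM (-1.12 ± 0.11), both as shared members beside Tdh. Sox2 fell by 0.51 ± 0.10 (adjusted p = 0.00119), with 435 to 487 CPM in 2C::GFP+ against 472 and 537 CPM in mESC and 241 to 263 CPM in 2C::GFP+/SA.

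Of 15 tested JAK-STAT3 targets 8 fell and 2 rose (median -0.58). Klf4 and Stat3 were the shared falls, and Pim1, a kinase gene, met the rule for a shared rise (1.13 ± 0.32, adjusted p = 0.0334). The call of Pim1 ended without mESC replicate 1 (0.195), without mESC replicate 2 (0.224), without replicate 2 of 2C::GFP+/SA (0.144) and with DESeq2 size factors (0.0503), and its adjusted p went down to 1.83e-05 over all alternatives. In the fits without 1 of those libraries 1 target rose. The receptor subunit gene Il6st fell by 1.22 ± 0.10 (adjusted p = 7.87e-07), from 162 and 167 CPM to between 90.9 and 120 CPM with LIF or no treatment, and to 30.6 and 36.7 CPM in 2C::GFP+/SA, whose medium held the IL6 receptor complex.

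Genes of the formative and primed states were more often higher. Of 19 members 10 rose and 2 fell, while 7 did not pass (median 1.23), and 8 differed among the reporter groups. Dnmt3a was shared: it was at 47.9 and 66.6 CPM in mESC, against 332 and 259 in 2C::GFP+, then 278 and 297 in 2C::GFP+/SGC, and finally 224 and 293 in 2C::GFP+/SA (2.30 ± 0.17). Grhl2, described above, was the other shared rise. Dnmt3l, the cofactor gene of the de novo methyltransferases, rose by 1.53 ± 0.15 (adjusted p = 3.94e-06), and Dnmt3b had a value of 0.40 ± 0.28 (adjusted p = 0.298), with 234 and 110 CPM in mESC and 187 to 303 CPM in reporter cells. The mESC libraries thus differed from each other in Dnmt3b by more than most reporter libraries did, and without mESC replicate 1 the value was 1.05 (adjusted p = 0.000791), and the adjusted p over all alternatives lay from that value to 0.892. Pou3f1, a POU factor gene, rose by 3.62 ± 0.29 (adjusted p = 1.06e-06) to 6.59 to 9.76 CPM in 2C::GFP+ and 2C::GFP+/SGC and to 41.9 and 68.6 CPM in 2C::GFP+/SA. Lefty2, a Nodal antagonist gene, was shared and lower (-2.01 ± 0.46), but its mESC values were 231 and 574 CPM. It was called without mESC replicate 1 or 2C::GFP+/SGC replicate 1 and in no other fit that left out 1 library, where its adjusted p was between 0.0554 and 0.184 (0.0263 with all libraries, and from 3.61e-06 over all alternatives). The 2 falls in the list were thus 1 in each of those fits except without mESC replicate 2, and 1 without mESC replicate 1. In the wider list of 18 DNA methylation and demethylation genes, 6 were called higher and 2 lower, and of the latter 1 was called without mESC replicate 1, 2C::GFP+ replicate 2 or either 2C::GFP+/SGC library.

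Nearly all germline genes were higher in reporter cells, where 22.4% of all tested genes were. The share of shared shift genes, 1 of 29, was near the 3.87% of all tested genes. Of 29 members 27 rose and 0 fell, while 2 did not pass (median 2.98; 0 were lower at an unadjusted p under 0.05 in edgeR, and DESeq2 also called 0 lower), and 19 differed among the reporter groups. The only shared member was Hormad1, a gene of the meiotic chromosome axis, which was at 3.68 and 1.44 CPM in mESC, against 20.8 and 36.4 in 2C::GFP+, then 19.9 and 36.8 in 2C::GFP+/SGC, and finally 19.7 and 31.9 in 2C::GFP+/SA (3.29 ± 0.54). Again replicate 2 was the higher library in each reporter group. By contrast Mael, a piRNA pathway gene, was at 18.6 and 21.9 CPM in 2C::GFP+ and between 29.3 and 44.5 CPM in the treated groups, against a mean of 1.14 CPM in mESC (4.68 ± 0.25, adjusted p = 1.24e-08). Tex19.1, which restrains transposable elements, went from 16.5 and 14.3 CPM in mESC to 70.4 and 71.2, 98.7 and 144, and 197 and 178 CPM in the 3 groups (2.92 ± 0.16, adjusted p = 2.51e-08). An E-box, CACGTG, which is its own reverse complement and is bound by basic helix-loop-helix factors such as MAX and MGA, stood within 250 bases before the start site in 12 of the 24 promoters of germline genes that rose and have a RefSeq entry. All 13213 promoters held it in 7.95% of cases, the higher shared shift genes in 5.67% and the lower in 8.30%. The 100 bases before the start site are shown for Hormad1 (chr3:95559577-95559676, plus strand) beside those of Sycp3, a gene of the synaptonemal complex (chr10:88459487-88459586, plus), and Slc25a31, a germ cell ADP/ATP carrier gene (chr3:40708771-40708870, plus), with the E-boxes in capitals.
Hormad1: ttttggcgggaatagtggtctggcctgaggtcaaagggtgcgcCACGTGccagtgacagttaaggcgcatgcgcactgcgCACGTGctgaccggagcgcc
Sycp3: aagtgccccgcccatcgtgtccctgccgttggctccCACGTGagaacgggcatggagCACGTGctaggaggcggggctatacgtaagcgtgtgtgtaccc
Slc25a31: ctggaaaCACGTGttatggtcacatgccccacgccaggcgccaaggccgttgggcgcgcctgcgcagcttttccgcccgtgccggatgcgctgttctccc
Hormad1 and Sycp3 carry 2 E-boxes each and Slc25a31 carries 1. Sycp3 was at 0.517 and 1.28 CPM in mESC and between 3.86 and 13.1 CPM in reporter cells (3.22 ± 0.53, adjusted p = 0.000834). Slc25a31 rose by 4.57 ± 0.35 (adjusted p = 4.97e-07), and its level differed among the reporter groups, with 5.09 and 6.65 CPM in 2C::GFP+ and 30.5 and 30.1 CPM in 2C::GFP+/SA. The 3 genes were chosen for display after their motifs were seen. Of the other motifs searched on both strands, the TCF/LEF site CTTTGAT was in 0.896% of higher, 2.62% of lower and 2.32% of all promoters, the metal response element TGCNCNC in 51.9%, 57.6% and 51.8%, and a sterol response element in 2.09%, 2.18% and 1.01%. Matches to the metal and E-box motifs can overlap each other.

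Imprinted genes, which are expressed from the copy of 1 parent, rose in 11 and fell in 5 of 27 tested cases (median 0.59; 3 fell without mESC replicate 1). Of all tested genes 22.4% rose and 17.4% fell. Grb10, an adaptor gene that restrains growth factor receptors, was shared, at 34.8 and 31.3 CPM in mESC, against 139 and 178 in 2C::GFP+, then 151 and 175 in 2C::GFP+/SGC, and finally 135 and 168 in 2C::GFP+/SA (2.25 ± 0.15). The Dlk1-Meg3 domain on chromosome 12 held shared genes of both directions. The RNA gene Rian was at 436 and 389 CPM in mESC and between 130 and 205 CPM in reporter cells (-1.36 ± 0.12). Its neighbours Meg3 and Rtl1 were shared and lower as well (-1.45 ± 0.37 and -1.26 ± 0.35), and with Rian they made up a run of 3 adjacent tested genes from 109541001 to 109661716. Dlk1, the gene at the other end, was at 0.255 and 0 CPM in mESC and between 2.65 and 5.23 CPM in reporter cells (4.42 ± 0.59). Mirg, further along, fell by 1.71 ± 0.23 (adjusted p = 0.000112) with reporter levels from 16.6 to 5.62 CPM, over the limit for a shared gene. Meg3 was at 335 and 194 CPM in mESC and at 174 CPM in 2C::GFP+/SGC replicate 1, against 69.1 to 94.4 CPM in the other reporter libraries. The adjusted p of Meg3 was between 7.93e-05 and 0.177 over all alternatives. Its call ended without either library of mESC, 2C::GFP+ or 2C::GFP+/SA, with adjusted p-values from 0.066 to 0.177 (0.0328 with all libraries), and that of Rtl1 ended without mESC replicate 1 (0.255), the highest of its alternatives, which went down to 0.00557. Away from this domain, H19 (4.76 ± 0.35, adjusted p = 2.44e-07) and Magel2 (5.95 ± 0.43, adjusted p = 1.87e-07) rose in all groups and far more in 2C::GFP+/SA, to 40.4 and 33.9 CPM for H19 against a mean of 1.78 CPM in 2C::GFP+. A further 3 runs of 3 adjacent shared genes were found: Gm13241, Gm13245 and Zfp981 on chromosome 4 (higher, 146475332 to 146539395), Plk-ps1, Trmt44 and Acox3 on chromosome 5 (lower, 35554184 to 35615352), and Jam3, Gm48796 and Igsf9b on chromosome 9 (lower, 27097384 to 27357546). Zfp981, a zinc finger gene, went from 56.2 and 36.2 CPM to between 118 and 199 CPM. Reads of near-identical zinc finger genes may be split or shared between copies, so the levels in that run are uncertain.

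**Figure D3:**
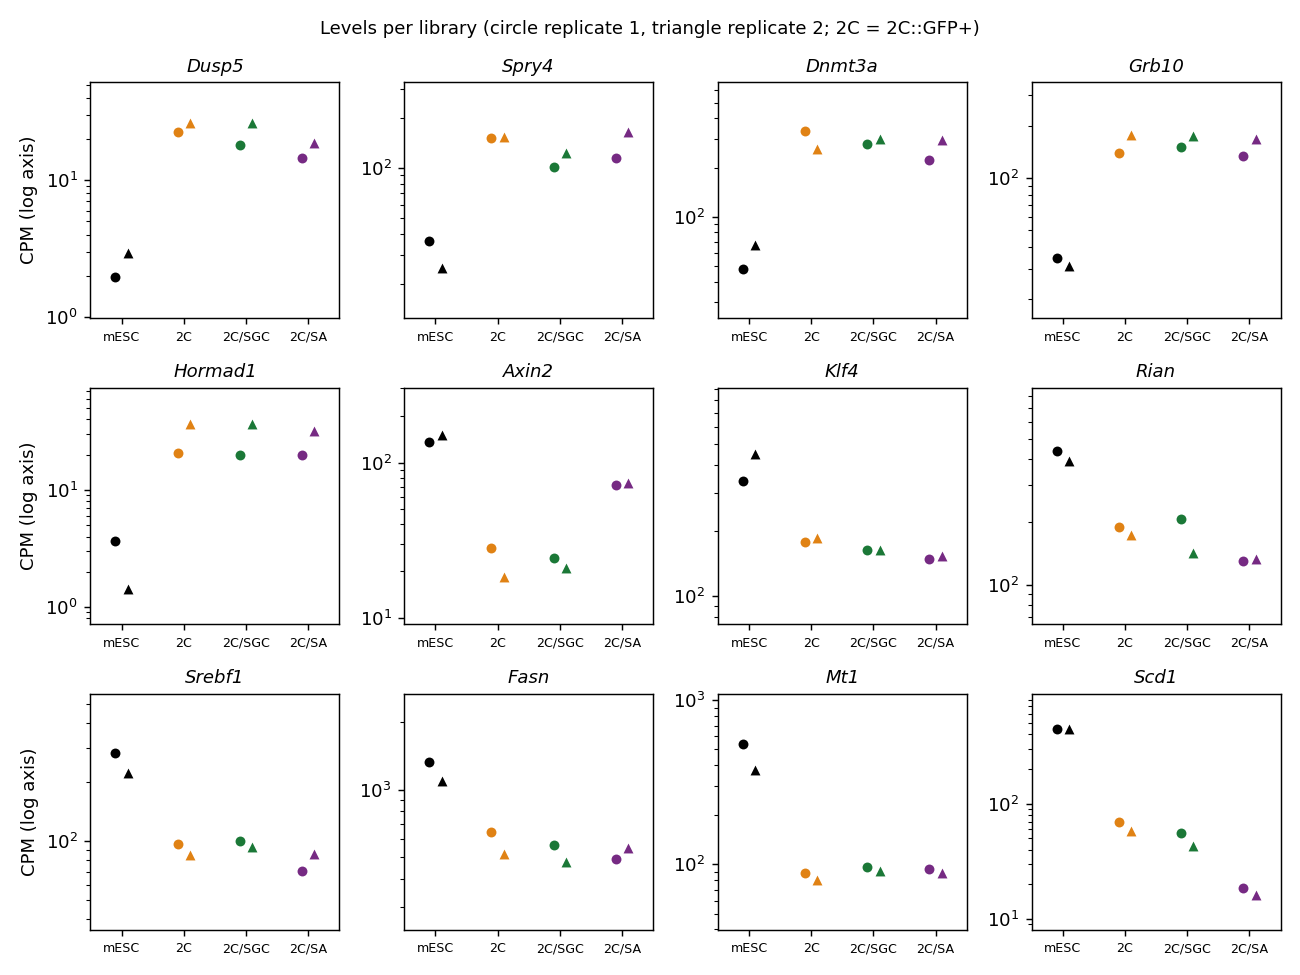
CPM on a log axis in each of the 8 libraries (points, coloured by group) is shown for 12 genes of the pathways described, with mESC at the left of each panel. Dusp5, Spry4, Dnmt3a, Grb10 and Hormad1 are raised in all 3 reporter groups, and Klf4, Rian, Srebf1, Fasn and Mt1 are lowered. These 10 genes were chosen for fitted group levels within 1.5-fold, which is not proof of equal levels. Axin2 and Scd1 differ between 2C::GFP+/SA and the other reporter groups.

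More genes of lipid synthesis fell than rose, and 9 of the fatty acid and 14 of the sterol genes differed among the reporter groups. Of 17 fatty acid synthesis genes 12 fell, 1 rose and 4 did not pass (median -1.04), and of 24 sterol biosynthesis genes 21 fell, 0 rose and 3 did not pass (median -0.71; 0 were higher at an unadjusted p under 0.05 in edgeR, and DESeq2 also called 0 higher). The 3 shared members of the first list were Srebf1, Fasn and Lpin1. Srebf1, which encodes the transcription factor that drives fatty acid synthesis genes, was at 281 and 224 CPM in mESC, against 96.5 and 84.6 in 2C::GFP+, then 101 and 93.7 in 2C::GFP+/SGC, and finally 70.7 and 85.7 in 2C::GFP+/SA (-1.52 ± 0.11). Fasn, the fatty acid synthase gene, fell from 1332 and 1089 CPM to between 473 and 648 CPM (-1.17 ± 0.12), and Lpin1, a phosphatidate phosphatase gene, from 80.2 and 74.6 CPM to between 17.8 and 38.4 CPM (-1.58 ± 0.24). The desaturase genes had larger falls that continued within the reporter side. Scd1 was at 446 CPM in both mESC libraries, at 42.8 to 69.1 CPM in 2C::GFP+ and 2C::GFP+/SGC and at 18.6 and 16.1 CPM in 2C::GFP+/SA (-3.55 ± 0.11, adjusted p = 1.61e-10), and Scd2 fell from 2150 and 2201 CPM to between 220 and 478 CPM (-2.52 ± 0.11, adjusted p = 2.85e-09). Elovl6, a fatty acid elongase gene, was the member that rose (0.58 ± 0.12, adjusted p = 0.00213). Without mESC replicate 1 it was not called (adjusted p = 0.0731, the highest of its alternatives, of which the lowest was 6.52e-06), and without 2C::GFP+/SA replicate 1 2 members rose. Among the sterol genes Stard4, a cholesterol transporter gene, was the 1 shared member (73.2 and 90.0 CPM against 31.1 to 47.3 CPM, -1.03 ± 0.11).

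Of 20 glycolysis genes 10 fell, 2 rose and 8 did not pass (median -0.37), and Aldoc, an aldolase gene, was the shared member, going from 33.9 and 42.6 CPM to between 13.1 and 19.4 CPM (-1.17 ± 0.14). The hexokinase gene Hk2 fell by 1.03 ± 0.09 (adjusted p = 1.22e-06), from 522 and 501 CPM to 368 and 343, 251 and 251, and 178 and 172 CPM in the 3 groups, and thus differed among them. The 2 rises were 0 without mESC replicate 1 or 2C::GFP+/SGC replicate 2, and 1 without any other library except 2C::GFP+/SA replicate 1. Metal-binding genes included 1 shared fall. Mt1, a metallothionein gene, was at 543 and 377 CPM in mESC, against 88.4 and 79.5 in 2C::GFP+, then 95.9 and 91.3 in 2C::GFP+/SGC, and finally 93.8 and 87.9 in 2C::GFP+/SA (-2.36 ± 0.12), so that the 6 reporter libraries lay closer together than the mESC pair. Mt2 fell by 1.97 ± 0.21 (adjusted p = 7.52e-06) and the zinc exporter gene Slc30a1 by 1.15 ± 0.16 (adjusted p = 6.22e-05). In the list of 15 iron and zinc genes as a whole 5 rose and 4 fell, where 22.4% and 17.4% of all tested genes did. The 5 rises were 3 without mESC replicate 1 and 2 without mESC replicate 2.

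Genes of the retinoic acid pathway were higher in 11 and lower in 2 of 16 cases (median 2.45), against 22.4% and 17.4% of all tested genes. Rarg, a retinoic acid receptor gene, was the shared member, at 71.4 and 40.4 CPM in mESC, against 360 and 347 in 2C::GFP+, then 314 and 338 in 2C::GFP+/SGC, and finally 406 and 516 in 2C::GFP+/SA (2.74 ± 0.22). Stra8, a retinoic acid target of meiotic cells, was at 0.138 and 0.205 CPM in mESC, between 47.2 and 132 CPM in 2C::GFP+ and 2C::GFP+/SGC and at 20.0 and 14.9 CPM in 2C::GFP+/SA (8.35 ± 0.48, adjusted p = 4.54e-06).

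Of 28 genes of the 2-cell-like state 27 rose (median 8.62), where 22.4% of all tested genes did. None of the 28 was a shared shift gene, against 3.87% of all tested genes. Their median range among the reporter groups was 3.49 on the log2 scale, against a limit of 0.585. Duxf3, which encodes DUX, was at 0.0437 and 0 CPM in mESC, against 4.71 and 4.99 in 2C::GFP+, then 9.24 and 13.4 in 2C::GFP+/SGC, and finally 71.6 and 76.6 in 2C::GFP+/SA (8.65 ± 0.37, adjusted p = 2.59e-09). Zscan4c was at 0.692 and 1.49 CPM in mESC, 156 and 196, 356 and 372, and 1699 and 637 CPM in the same order of groups (8.88 ± 0.75, adjusted p = 0.000696). Pramef12 was the 1 member that fell (-0.64 ± 0.20, adjusted p = 0.0336), a call that ended without either mESC library (adjusted p = 0.0671 and 0.292) and without replicate 2 of 2C::GFP+/SA (0.159; from 5.73e-06 to 0.292 over all alternatives). The rise of this list and a sort of cells on the reporter, which the labels neither state nor deny, cannot be told apart. Many of these genes have near-identical copies, among which reads may be split. Of 13 tested maternal oocyte genes 5 rose (2 without mESC replicate 1 and 3 without mESC replicate 2), and 2 were shared. Nlrp14, an oocyte gene of the NLRP family, went from 0.634 and 0.513 CPM to at most 10.7 CPM (3.67 ± 0.33), and the other was Padi6, which encodes a protein of the oocyte cytoplasm (2.87 ± 0.74, adjusted p = 0.00724). Padi6 stayed under 1 CPM in every library and was not called without mESC replicate 1 (adjusted p = 0.151, with a lowest value of 0.00178 over all alternatives).

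Of 27 p53 targets 6 rose and 7 fell, near the 22.4% and 17.4% of all tested genes, none was shared (3.87% of all tested genes were), and 17 differed among the reporter groups. Without mESC replicate 1, 3 members rose, and without 2C::GFP+/SA replicate 2, 12 fell. Cdkn1a, the cell cycle inhibitor p21, lay at the edge of the limit, at 223 and 297 CPM in mESC, between 47.3 and 54.5 CPM in 2C::GFP+ and 2C::GFP+/SGC and at 67.2 and 86.0 CPM in 2C::GFP+/SA (-2.16 ± 0.12, adjusted p = 2.95e-08). Proliferation genes rose in 13 and fell in 1 of 30 cases with none shared (median 0.16). Cdk1 was the first by adjusted p, at 0.83 ± 0.11 (adjusted p = 3.39e-05), and without mESC replicate 2 the 13 rises were 5. The 1 fall was 0 without mESC replicate 1 and 3 without 2C::GFP+/SA replicate 2.

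**Figure D4:**
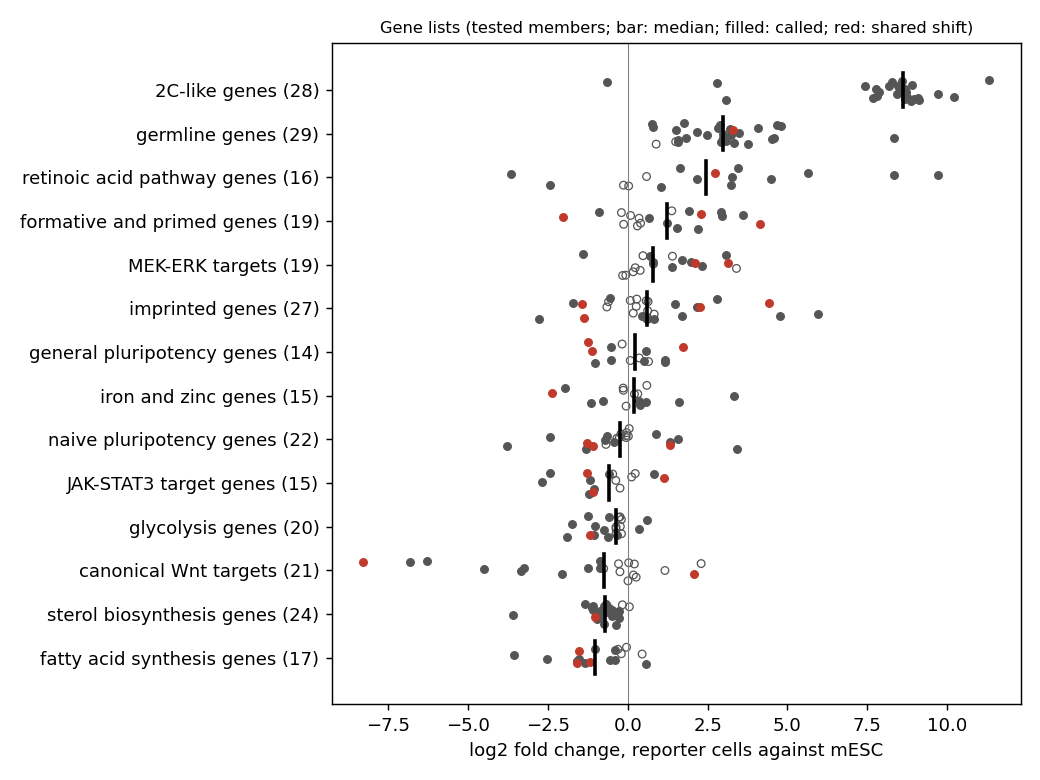
Log2 fold changes of reporter cells against mESC are shown for the tested members of 14 of the 27 gene lists (points), with the list median as a bar. Filled points are members called in that comparison, and red points are shared shift genes. The medians of the 2-cell-like, germline and retinoic acid lists lie to the right of 0 and those of the sterol, fatty acid and WNT lists to the left. The lists hold 0 to 4 red points each, and 3.87% of all tested genes were shared.

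Fibroblast and primitive endoderm markers that were called went almost only upwards, and the other lists of cell type markers moved in both directions. Of all tested genes 22.4% rose and 17.4% fell. The 11 tested fibroblast markers, of 19 listed, summed to 35.6 and 42.4 CPM in mESC and to 46.3 to 125 CPM in the reporter libraries, highest in 2C::GFP+/SA. Of these 8 rose and 0 fell (median 1.81), and 7 differed among the reporter groups. For 8 of the 11, all 6 reporter libraries were above both mESC libraries. Dcn, a defining fibroblast gene, was at 0 CPM in both mESC libraries and at most 0.272 CPM in reporter cells, near the floor of the shallower libraries. Its low level does not stand for the whole list. The 18 tested primitive endoderm markers, of 20, summed to 1454 and 1412 CPM in mESC and to 1156 to 1632 CPM in reporter cells. Of these 9 rose (4 without mESC replicate 2), 1 fell, 13 differed among the reporter groups and 0 were shared. Gata6, their defining factor gene, was at 0.0729 and 0.103 CPM in mESC, 1.40 to 3.74 CPM in 2C::GFP+ and 2C::GFP+/SGC and 20.3 and 23.1 CPM in 2C::GFP+/SA (5.91 ± 0.55, adjusted p = 2.95e-06). The 15 tested trophoblast markers, of 18, summed to 194 and 207 CPM in mESC and to 67.7 to 121 CPM in reporter cells, with 4 rises and 5 falls. Eomes, a T-box factor gene counted here and among the mesendoderm markers, was shared and lower, at 15.8 and 17.9 CPM against 5.65 to 6.63 CPM (-1.45 ± 0.18). Among 12 tested neuroectoderm markers 6 rose and 2 fell (0 without mESC replicate 1, 1 without mESC replicate 2 or 2C::GFP+/SGC replicate 1), and Pax6, a paired box factor gene, was shared and higher at 4.57 to 8.18 CPM against 0.459 and 0.103 CPM (4.15 ± 0.44). Ncam1, a neural adhesion molecule gene, was shared and lower at 13.0 to 20.4 CPM against 49.1 and 23.8 CPM (-1.07 ± 0.22), and it was not called without mESC replicate 1 (adjusted p = 0.127, with a lowest value of 3.95e-10 over all alternatives). The 6 tested blood cell markers, of 15, summed to 224 and 184 CPM in mESC and to 97.8 to 202 CPM in reporter cells. Of these 3 rose and 1 fell. Laptm5 was the fall, from 207 and 172 CPM to between 76.9 and 164 CPM (-0.61 ± 0.15). The sole blood cell marker that was shared was Cd68, at 18.8 to 35.6 CPM against 15.4 and 11.2 CPM (1.05 ± 0.19). The part of such cells in the results above was not tested.

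Of the genes of the compounds' targets, Kdm5b rose and Dot1l did not pass. The log2 fold change of Dot1l was 0.08 ± 0.12 (adjusted p = 0.62), with 232 and 176 CPM in mESC and 190 to 270 CPM in reporter cells. Kdm5b rose by 0.56 ± 0.12 (adjusted p = 0.00173), from 489 and 558 CPM to between 711 and 886 CPM, with fitted group levels within 0.08 of each other on the log2 scale. Its adjusted p was 0.0539 without mESC replicate 1 and between 6.59e-06 and 0.0539 over all alternatives. On the sex chromosomes 4 of 7 Y-linked genes rose (2 without mESC replicate 1), and Ddx3y was present on both sides, at 66.4 and 64.9 CPM in mESC and 71.3 to 103 CPM in reporter cells. Xist did not pass (0.49 ± 0.31, adjusted p = 0.227), with 6.33 and 3.18 CPM in mESC and up to 24.8 CPM in 2C::GFP+/SA. Without both columns assigned to 2C::GFP+ it was called higher (1.13, adjusted p = 0.0238, the lowest of its alternatives, which went up to 0.865).

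How many genes count as shared depends on which groups are compared. Without both 2C::GFP+/SA libraries, 79 genes differed between 2C::GFP+ and 2C::GFP+/SGC, against 4813 among the 3 groups. In that fit 2014 genes met the rule for a shared shift, of which 715 were among the 798. Without both columns assigned to 2C::GFP+, 2842 genes differed between the treated groups and 1634 met the rule, of which 733 were among the 798. With a group left out, fewer libraries have to separate and the range is taken over fewer groups, which loosens the rule. Most of the 798 genes were therefore bound to meet it again, and these overlaps are not a test of their stability. At an unadjusted p under 0.05, 9928 genes differed between reporter cells and mESC.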

How the data were processed

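The deposited tables held whole-number counts per gene and TPM values for the same 8 libraries. Per the submitters' processing notes, STAR 2.7.4a, featureCounts 2.0.0, Trim Galore 0.6.5 and FastQC 0.11.9 were used with mm10, and Cell Ranger was named without a role. Counts were used as the authors deposited them, and how the authors computed TPM is not given in the sources used here. TPM served for levels between genes and for limma. Counts were filtered with filterByExpr, scaled with TMM and fitted with edgeR 4.0.16 (R 4.3.3) with 1 term per group, robust quasi-likelihood and 4 residual degrees of freedom. All adjusted p-values are Benjamini-Hochberg values over all tested genes. Alternatives used DESeq2 1.42.0, limma 3.58.1, other scaling, filters, thinning, left-out libraries and other thresholds. On simulated counts of 19801 genes for this comparison, 69% of 100 genes changed 2-fold and 93% of 100 genes changed 4-fold were called, and 43% and 81% met the shared shift rule. Only these genes were changed, weak genes were not among them, and no difference among reporter groups was simulated. In the data 39.9% of genes were called and 23.4% differed among groups, so the simulated shares need not hold there. A 2-fold change is also the minimum of the rule, so such genes can miss it by a small error. Of the identifiers, 93 were not in the annotation used, and results for a few genes are not reported here.

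The members and gene lists were chosen with earlier results of these data known. Named genes are the 10 largest rises and 10 largest falls among shared shift genes at 10 CPM or more, the 5 most abundant in each direction, up to 4 called members in the more frequent and 2 in the other direction of each list by adjusted p, preset genes, and those nearest the limit. Dcn, Dlk1, Fasn, Hormad1, Lpin1, Meg3, Mirg, Rtl1, Slc25a31, Slc30a1, Srebf1, Sycp3 and Zfp981 fall outside this rule and were named after their values were seen, as were genes given only as members of a run.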

Additional observations from a re-analysis of the deposited data

Results flagged for a closer look

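Of the 110 genes described, 32 had changes against mESC that differed among the 3 reporter groups in edgeR's quasi-likelihood test of that difference (2 libraries per group, adjusted p over all tested genes in parentheses). In 21 of them the level was highest in 2C::GFP+/SA: Duxf3 (6.66e-07), H19 (1.81e-06), Magel2 (1.44e-05), Pou3f1 (1.80e-05), Nodal (1.94e-05), Axin2 (2.45e-05), Gata6 (6.88e-05), Dppa2 (7.49e-05), Tex19.1 (0.00018), Xist (0.000358), Slc25a31 (0.000431), Sp5 (0.000884), Wdtc1 (0.00508), Mael (0.0108), Mcl1 (0.0118), Dnmt3l (0.0166), Cdkn1a (0.0216), Actn4 (0.0247), Dusp6 (0.0298), Slc30a1 (0.0318) and Zscan4c (0.0409). In 10 it was lowest there: Il6st (8.72e-06), Scd1 (1.42e-05), Hk2 (0.000144), Tfcp2l1 (0.000208), Esrrb (0.000358), Sox2 (0.000809), Scd2 (0.00219), Stra8 (0.00232), Zfp42 (0.013) and Stat3 (0.0272). The remaining gene was Myc (0.0109). Wdtc1, Mcl1, Actn4 and Stat3 are shared shift genes, whose group levels lay within the limit. The 2C::GFP+/SA libraries differ from the other reporter libraries in compound and cytokine together, which cannot be told apart.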

How the results depend on the processing

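The 8215 calls against mESC became 3981 with all reporter libraries fitted as 1 group, and leaving out 1 library gave 4798 to 8746. The 4813 calls among reporter groups became 2842 without both columns assigned to 2C::GFP+ and 79 without both 2C::GFP+/SA libraries, where 1 library left out gave 2924 to 4886. The 798 shared shift genes became 1634 and 2014 without those groups, 286 and 1588 with limits of 0.322 and 1 on the log2 scale among groups, and 1627 and 277 with at least 1.5-fold and 4-fold from mESC. Leaving out 1 library gave 646 to 772. Other settings for these 3 counts, DESeq2, limma on TPM, other scalings and filters and thinning, stayed within 1.5 times. Upper-quartile scaling moved the share of calls that were higher from 56.3% to 66.1%. Of the named genes, 4 changed sign, each with a value that did not pass: Nanog (0.053 with upper-quartile scaling, -0.13 to 0.0040 with 1 library left out), Dnmt3b (-0.044 to 1.05 with 1 library left out), Dot1l (-0.11 to 0.29 with 1 library left out, and -0.021 without 2C::GFP+/SA) and Xist (-0.32 without 2C::GFP+/SA). With 1 reporter group in the fit the calls of Ddx3y, Esrrb, H19, Il6st, Nodal, Pou3f1, Pramef12 and Sox2 ended (adjusted p from 0.0631 to 0.197). The medians of 4 of 27 lists changed sign in at least 1 alternative. The cause was not tested.

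With a replicate block, 9139 genes were called against mESC, 6020 among groups and 809 were shared shift genes. Same-numbered libraries correlated at 0.041 to 0.142 in their deviations, 3 of 6 pairs over 0.1. The main fit did not take the numbers as pairs, and these weak positive correlations do not exclude an effect that same-numbered libraries share. Replicate 2 of each group was the shallower library, and low genes are least certain there.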
